A study of Homo sapiens with 20 samples.

Results

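The androgen experiment compared C42B cells treated for 16 h with 100 nM dihydrotestosterone (DHT) with C42B cells that received an equal volume of ethanol as vehicle. Its 8 arrays, 4 per group, were picked by their titles from the 20 arrays of the series, and all 19775 genes read by a probe set of their own were tested on them. C42B is a castration-resistant human prostate cancer line that was derived from LNCaP, so the experiment describes 1 line at 1 dose and 1 time. Cells were seeded at 150K per well in RPMI with 10% fetal bovine serum and spent 72 h in 10% charcoal-stripped serum, which is depleted of steroids, before either treatment. Both groups had therefore been through the same androgen withdrawal. RNA came from 4 separate wells per group. Nothing says that the wells were separate cultures, and the p-values reflect only how these wells varied, which may be technical. RNA was taken from whole wells, so fewer cells of a kind and less RNA per cell cannot be told apart. The remaining 12 arrays of the series carry siRNA against the histone demethylase LSD1 (siLSD1) or the control siNTC, with 3 arrays per group in C42B and in LNCaP. The C42B part of that experiment serves as a comparison here.

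DHT is a potent androgen that prostate tissue makes from testosterone. It binds the androgen receptor, a nuclear receptor that chaperones keep ready in the cytoplasm, and the bound receptor enters the nucleus and settles on DNA as a dimer, largely at distal enhancers that pioneer factors such as FOXA1 have opened. In the luminal secretory cells of the prostate the receptor drives genes of secreted proteases such as prostate-specific antigen (KLK3), of lipid synthesis and of protein folding and glycosylation, and it lowers the transcripts of other genes, among them enzymes that inactivate androgens.

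The receptor's consensus element, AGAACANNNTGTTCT, is an inverted repeat of AGAACA, so it reads the same on both strands. It was searched on both strands in the 250 bases before each gene's start in the RefSeq promoters of GRCh38.p14. The promoters of the 3 genes of the androgen-induced list with the largest fitted rises are shown. KLK3 and LINC00844 were added after their values were seen. They had the largest fitted rises among the 4 genes at least 2-fold higher that hold a window with 2 mismatches. Each sequence runs 5′ to 3′ in the direction of its gene, and capitals mark the window closest to the consensus over its 12 fixed letters.
STEAP4: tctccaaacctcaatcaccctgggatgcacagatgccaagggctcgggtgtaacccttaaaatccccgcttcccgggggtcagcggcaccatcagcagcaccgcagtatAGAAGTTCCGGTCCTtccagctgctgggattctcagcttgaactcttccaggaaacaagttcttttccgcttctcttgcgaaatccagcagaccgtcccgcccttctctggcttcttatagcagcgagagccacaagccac
KLK2: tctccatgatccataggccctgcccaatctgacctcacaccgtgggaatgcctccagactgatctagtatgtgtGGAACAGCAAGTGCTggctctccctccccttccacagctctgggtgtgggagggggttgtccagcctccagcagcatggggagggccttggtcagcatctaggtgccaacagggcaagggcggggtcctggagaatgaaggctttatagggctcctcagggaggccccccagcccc
TRPM8: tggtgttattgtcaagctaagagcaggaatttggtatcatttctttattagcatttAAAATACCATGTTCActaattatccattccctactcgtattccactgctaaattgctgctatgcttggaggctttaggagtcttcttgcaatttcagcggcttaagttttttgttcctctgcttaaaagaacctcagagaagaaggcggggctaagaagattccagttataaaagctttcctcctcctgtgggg
KLK3: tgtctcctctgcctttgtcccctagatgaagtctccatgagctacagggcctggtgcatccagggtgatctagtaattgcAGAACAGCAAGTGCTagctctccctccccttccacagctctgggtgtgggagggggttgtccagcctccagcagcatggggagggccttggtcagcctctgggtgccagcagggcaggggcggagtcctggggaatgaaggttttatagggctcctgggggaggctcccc
LINC00844: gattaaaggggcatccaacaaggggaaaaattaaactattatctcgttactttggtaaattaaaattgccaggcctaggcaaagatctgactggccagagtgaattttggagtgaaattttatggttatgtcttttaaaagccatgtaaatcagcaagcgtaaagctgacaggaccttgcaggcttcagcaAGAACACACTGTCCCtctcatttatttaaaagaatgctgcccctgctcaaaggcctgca
The KLK3 promoter, chr19:50854665-50854914 on the plus strand, has its closest window at −170 to −156 from the start, with 2 mismatches. The KLK2 promoter, chr19:50873189-50873438 on the plus strand, has its closest at −176 to −162, with 3 mismatches. The KLK2 window differs from that of KLK3 by the substitution A1G, counted from 1 at the 5′ end of the window with the KLK3 base first. LINC00844, chr10:58999268-58999517 on the plus strand, has 2 mismatches at −59 to −45. TRPM8, chr2:233917123-233917372 on the plus strand, has 3 mismatches at −194 to −180. STEAP4, chr7:88306895-88307144 on the minus strand, comes no closer than 4 mismatches, at −141 to −127 and in 1 further window of equal score.

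A window with at most 2 mismatches lay in 4 of 188 promoters of genes at least 2-fold higher with DHT (2.13%), those of LINC00844, KLK3, LINC00836 and SLITRK6, and in 0 of 177 promoters of genes at least 2-fold lower. The same held for 119 of 15384 promoters of all tested genes (0.774%) and 326 of 27305 promoters in the table (1.19%). With up to 3 mismatches the shares were 9.04% of the higher genes, 5.65% of the lower genes and 6.97% of the tested genes. The 6 letters AGAACA, on either strand, were in 9.57% of the higher, 7.34% of the lower and 9.35% of the tested promoters. Of 33 promoters of the androgen-induced list, 1 had a window with at most 2 mismatches (3.03%) and 4 with at most 3 (12.1%). The 6 letters were in 1 of the 33 (3.03%). A match is a description of letters in a short window.

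After 16 h, DHT had raised the kallikreins KLK2, KLK3, KLK4 and KLK15, the membrane proteins STEAP4, TRPM8 and SLC45A3, the transcription factor SNAI2 and the sugar-transferring enzymes CSGALNACT1 and ST6GALNAC1, and had lowered the chemokine receptor ACKR3, the progesterone receptor PGR, the androgen-glucuronidating enzymes UGT2B15 and UGT2B17 and the adhesion protein AMIGO2. With limma, 6470 of 19775 genes passed at an adjusted p under 0.05 (32.7%). Of these, 2643 were higher with DHT (13.4% of all tested) and 3827 were lower (19.4%). Most differences were small, with a median size of 0.31 on the log2 scale among the genes that passed. At least 2-fold higher were 230 genes (1.16%) and at least 2-fold lower 231 genes (1.17%). At least 4-fold the sides were unequal, with 62 genes higher and 32 lower. The 2-fold and 4-fold counts use fitted differences, also where a group was too faint to give more than a lower bound. The part of such genes in the unequal sides was not tested. The split of the many small calls depended on scaling: higher genes made up 40.9% of the calls on the values as deposited and 62.0% after each array was centred on its median, which shifted every difference up by 0.07 on the log2 scale and gave 4530 higher and 2778 lower. Levels of DHT and vehicle did not overlap in 34.6% of the tested genes.

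**Figure D1:**
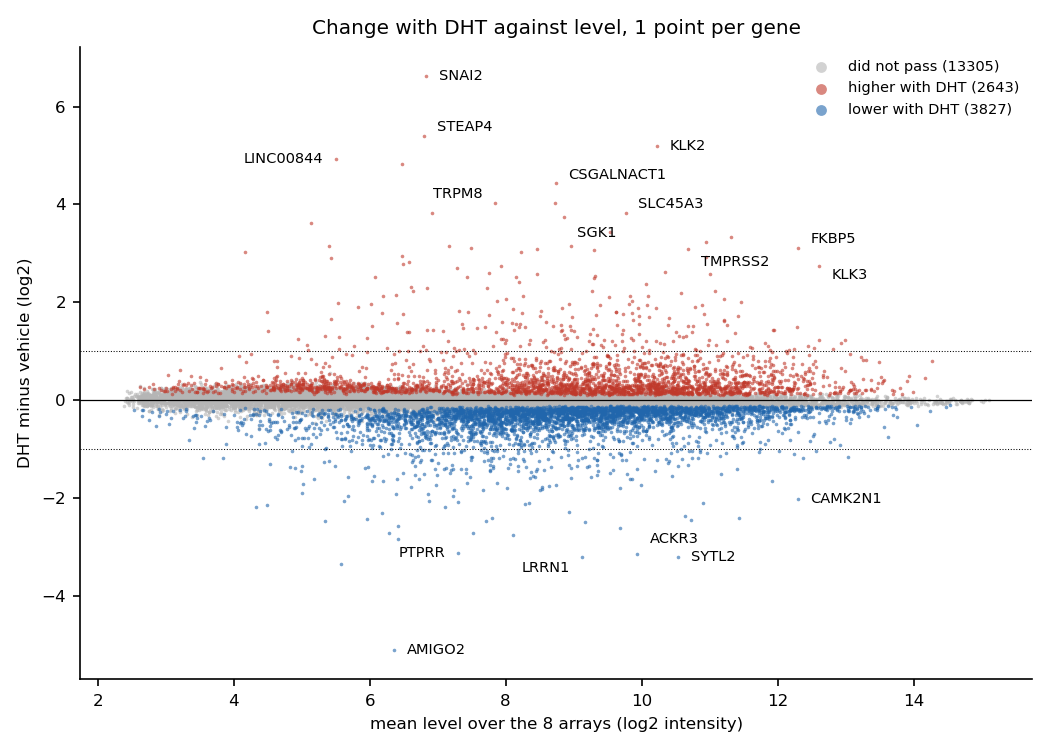
Difference between DHT and vehicle (log2, vertical) against the mean level over the 8 arrays (log2 intensity, horizontal), 1 point per gene, with genes that passed in colour and dotted lines at 2-fold. The 2643 higher and 3827 lower genes crowd near 0, and SNAI2, STEAP4 and KLK2 at the top and AMIGO2 at the bottom stand far from them.

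The 8 arrays had median intensities of 84.1 to 86.1. Gene-wise differences between replicate arrays had an SD of 0.16 to 0.19 within DHT and 0.14 to 0.17 within vehicle, and of 0.38 to 0.42 between the groups. The signal of the actin control at the 3′ end over that at the 5′ end, a sign of RNA integrity, was 0.91 to 1.16 log2 units with DHT and 0.90 to 1.12 with vehicle (two-sided exact permutation p = 0.629), and that of GAPDH gave p = 0.6 (exact permutation test; 0.0286 is the smallest p that 4 against 4 allow). Olfactory receptor genes, which should be silent here, served as a floor: 77.2% of their 320 values were under 6 on the log2 scale. A group mean under 6 is called dim below, and a fold against a dim group is counted from 6 as a lower bound. By that measure 5680 of the tested genes were dim in both groups.

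SNAI2, which encodes the zinc-finger repressor Slug, was off the floor with DHT alone. It read 10.20, 10.27, 9.99 and 10.12 log2 units in the 4 DHT wells and 3.29, 3.62, 3.70 and 3.46 in the 4 vehicle wells, at least 17.7-fold higher (limma adjusted p = 1.74e-10). All vehicle wells lay at the level of silent genes, and all DHT wells lay far above it. STEAP4, a metalloreductase of the cell surface, read 9.55, 9.54, 9.53 and 9.41 with DHT and 3.88, 3.99, 4.09 and 4.45 with vehicle, at least 11.4-fold higher (adjusted p = 1.45e-09). TRPM8, the cold-sensing calcium channel known for its expression in prostate, read 9.90, 9.90, 9.79 and 9.84 against 5.86, 5.85, 5.64 and 5.93, at least 14.5-fold higher (adjusted p = 3.34e-10). A second probe set of TRPM8 differed by 0.08 ± 0.08 (SE). These genes went from at or near the floor to levels of well-expressed genes, with no overlap between groups. Levels under the floor have no order, so genes with a dim group are not ranked by size.

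Among genes already measurable with vehicle, KLK2, a secreted serine protease, rose most. Its wells read 12.84, 12.81, 12.83 and 12.84 with DHT and 7.65, 7.62, 7.78 and 7.49 with vehicle, a log2 fold change of 5.19 ± 0.06 (SE) or 36.6-fold (limma adjusted p = 7.5e-11). CSGALNACT1, which starts the chains of chondroitin sulfate, read 10.90, 10.97, 10.92 and 11.05 against 6.63, 6.57, 6.45 and 6.44, or 21.7-fold (adjusted p = 1.32e-10). The other probe set of CSGALNACT1 rose by 0.44 ± 0.10. ST6GALNAC1, the sialyltransferase that makes the sialyl-Tn antigen, read 10.78, 10.71, 10.64 and 10.80 against 6.75, 6.70, 6.68 and 6.70, or 16.3-fold (adjusted p = 7.5e-11). The spread among the wells of a group was small beside the gap between the groups in these 3 genes. SLC45A3 (prostein), a transporter restricted largely to prostate, read 11.61, 11.73, 11.73 and 11.67 against 7.65, 8.14, 7.82 and 7.81, or 14.2-fold (adjusted p = 4.28e-09). SGK1, a kinase that steroid hormones induce, read 10.72, 10.83, 10.63 and 10.76 against 7.02, 6.88, 7.02 and 7.04, or 13.5-fold (adjusted p = 2.21e-10). The remaining 4 of the 12 largest rises, LINC00844, CCDC141, CTNNA2 and SLC26A3, were dim with vehicle and were at least 3.91-fold, 7.39-fold, 7.14-fold and 1.93-fold higher with DHT. The other probe set of SLC26A3 differed by 0.10 ± 0.10.

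**Figure D2:**
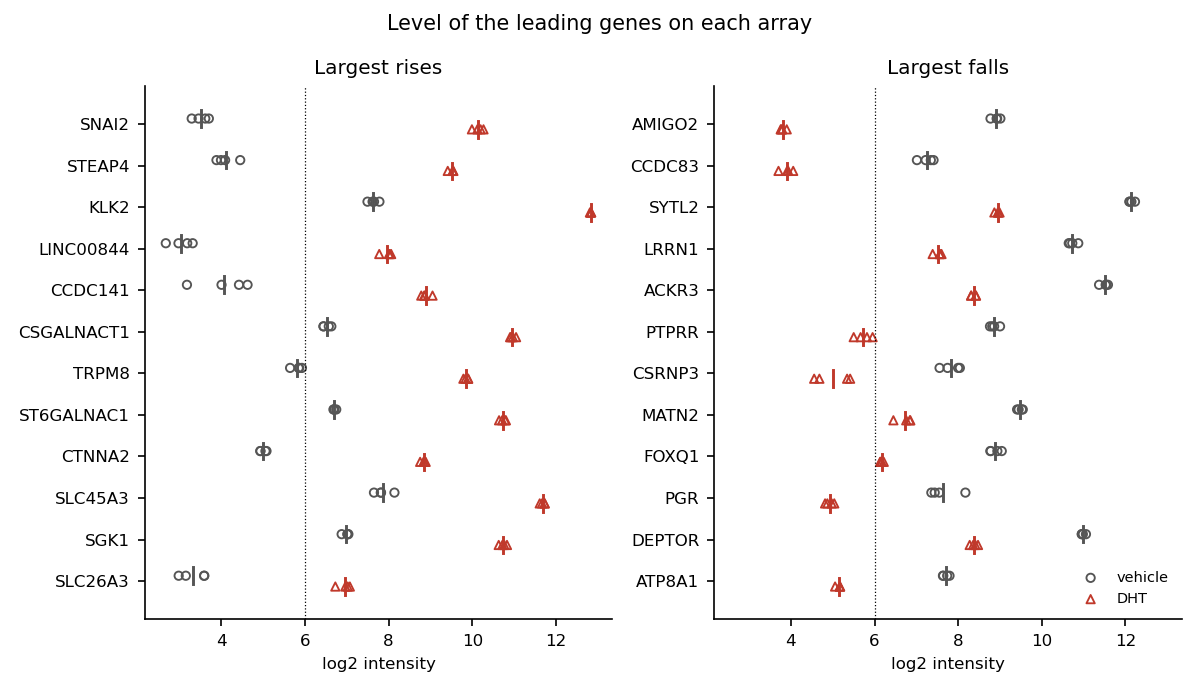
Log2 intensity of the 12 genes with the largest fitted rises (left) and falls (right) on each array, with triangles for DHT, circles for vehicle, vertical bars for group means and a dotted line at 6. DHT and vehicle do not overlap in any of the 24 genes, and in 7 of the 12 rises the vehicle values lie under 6.

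AMIGO2, a leucine-rich repeat protein of the cell surface that mediates adhesion, fell to the floor. Its wells read 3.77, 3.76, 3.80 and 3.90 with DHT and 8.92, 8.93, 9.01 and 8.77 with vehicle, at least 7.51-fold lower (limma adjusted p = 7.5e-11). With DHT it was at the level of silent genes in all 4 wells. Among genes measurable in both groups, SYTL2, which links RAB27 vesicles to the membrane, fell most and read 8.95, 8.99, 8.96 and 8.87 against 12.09, 12.14, 12.10 and 12.23, or 9.19-fold lower (adjusted p = 1.98e-10). ACKR3 (CXCR7), a scavenging receptor for the chemokine CXCL12, read 8.31, 8.42, 8.43 and 8.31 against 11.53, 11.54, 11.58 and 11.37, or 8.8-fold lower (adjusted p = 7.9e-10). Both SYTL2 and ACKR3 remained well above the floor with DHT. The other probe sets of ACKR3 differed by 0.16 ± 0.09 and −1.92 ± 0.10.

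PGR, the progesterone receptor, read 5.04, 4.87, 4.98 and 4.82 with DHT and 7.44, 8.17, 7.55 and 7.36 with vehicle, at least 3.09-fold lower (limma adjusted p = 1.25e-06). DEPTOR, an inhibitory partner of the kinase mTOR, read 8.41, 8.47, 8.36 and 8.28 against 10.95, 10.98, 11.05 and 10.96, or 6.09-fold lower, while its other probe set differed by −0.18. PTPRR, a tyrosine phosphatase that acts on MAP kinases, was at least 7.25-fold lower. Of the other falls among the 12 largest, LRRN1 was 9.18-fold, MATN2 6.74-fold and FOXQ1 6.56-fold lower, and CCDC83, CSRNP3 and ATP8A1 were dim with DHT and at least 2.38-fold, 3.57-fold and 3.25-fold lower. The second probe set of MATN2 differed by 0.06, so its fall rests on the brighter probe set. The other probe sets of ATP8A1 differed by 0.001 and −0.31. Those of CSRNP3 differed by −1.25, −1.12, −0.57, −0.41, −0.20 and 0.17 on the log2 scale.

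Of 39 measured genes on a list of known androgen-induced genes, 38 were higher with DHT (97.4%, against 13.4% of all genes) and 0 were lower. Of them 32 were at least 2-fold higher, and the median difference was 2.13 on the log2 scale against 0.01 over all genes. The list was drawn up with results of these arrays known, so its count is a description. FKBP5, a chaperone that acts on steroid receptors, read 13.83, 13.81, 13.92 and 13.88 with DHT and 10.73, 10.70, 10.76 and 10.75 with vehicle, or 8.7-fold higher (limma adjusted p = 1.32e-10). TMPRSS2, the membrane serine protease whose androgen-driven promoter is fused to ERG in many prostate cancers, read 12.18, 12.27, 12.15 and 12.30 against 9.12, 9.18, 9.23 and 9.05, or 8.46-fold (adjusted p = 7.23e-10). In both genes every DHT well stood far above every vehicle well.

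The elongation factors EAF2 and ELL2 were 10.8-fold and 3.84-fold higher, but the other probe sets of EAF2 rose by only 0.40 and 0.30 on the log2 scale. NDRG1, a stress-responsive differentiation gene, was 9.44-fold higher and PMEPA1, which restrains TGF-beta signalling, 7.58-fold. The drug and prostanoid exporter ABCC4 was 5.95-fold higher, the retinaldehyde dehydrogenase ALDH1A3 5.81-fold, and the ETS factor of prostate epithelium SPDEF 3.37-fold. The other probe set of ALDH1A3 differed by 0.04 ± 0.15 on the log2 scale. The other probe sets of SPDEF differed by 0.07, 0.08, 1.46 and 1.55. The lipid phosphatase INPP4B, dim with vehicle, was at least 3.96-fold higher. At the low end DBI rose by 0.45 ± 0.04 and PLPP1 by 0.49 ± 0.03 on the log2 scale. HPGD was dim in both groups, and its difference of 0.41 ± 0.12 lost its call without DHT replicate 2 or 3 or vehicle replicate 2 or 3, and under the replicate block. STEAP2, already at a mean of 13.71 with vehicle, differed by −0.05 ± 0.04 and did not pass. Of 19 genes that the androgen and glucocorticoid receptors are known to share, some on both lists, 10 were higher and 6 lower (median 0.17). As shares these were 52.6% and 31.6%, against 13.4% and 19.4% over all genes. The zinc-finger factor ZBTB16 was 4.68-fold and TIPARP, which ADP-ribosylates proteins, 3.87-fold higher.

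The kallikreins are secreted serine proteases encoded side by side on chromosome 19. Of 14 measured, 6 were higher with DHT (42.9%, against 13.4% of all genes) and 0 were lower. The 4 that were at least 2-fold higher on their brightest probe sets were the neighbours KLK15, KLK3, KLK2 and KLK4. KLK3 read 13.94, 14.03, 14.03 and 13.94 with DHT and 11.29, 11.24, 11.41 and 11.03 with vehicle, or 6.68-fold higher (limma adjusted p = 1.02e-08). KLK4 read 9.83, 9.94, 9.82 and 9.75 against 8.12, 8.32, 8.11 and 7.95, or 3.27-fold (adjusted p = 2.28e-07). KLK15 read 8.27, 8.49, 8.46 and 8.28 against 7.17, 7.14, 7.37 and 7.38, or 2.15-fold (adjusted p = 4.02e-06). None of these 3 had overlapping groups. On the log2 scale the other probe sets of KLK15 differed by 0.72, 0.12 and 0.08. Those of KLK4 rose by 0.97, 0.93, 0.80 and 0.435, and those of KLK3 by 3.06 and 0.63. KLK5 differed by 0.35 ± 0.08 (adjusted p = 0.00781), and KLK10, dim in both groups, by 0.18 ± 0.04 (adjusted p = 0.0103), a call lost with trend and robust eBayes (adjusted p = 0.143). The other 8, KLK1, KLK6, KLK7, KLK8 and KLK11 to KLK14, lay between −0.08 and 0.19 and did not pass. KLK2 and KLK3 are close in sequence, so signal of their probe sets may not belong to each gene alone, and 1 of the 4 KLK2 probe sets differed by −0.03 while the other 3 rose by 2.58 to 5.19.

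Large rises also adjoined each other elsewhere in the genome. Among 14333 pairs of adjacent tested genes in the order of RefSeq, 16 pairs had both members at least 2-fold higher, 13 had both at least 2-fold lower and 3 had 1 of each. The 16 include the kallikrein pairs KLK15 and KLK3, KLK3 and KLK2, and KLK2 and KLK4. The 13 include UGT2B17 and UGT2B15, whose probe sets may read more than 1 family member. At least 1 member was 2-fold higher in 368 pairs and 2-fold lower in 347. These counts use fitted values, dim genes included. The pairs that rose included EAF2 (10.8-fold) and the peptide transporter SLC15A2 (at least 3.87-fold), ZBTB16 and NNMT (2.23 and 2.53 on the log2 scale), the homeobox genes DLX1 and DLX2 (1.52 and 1.80), and FKBP5 and ARMC12 (3.12 and 1.41). The pairs that fell included SYTL2 (9.19-fold) and CCDC83 (at least 2.38-fold), the collagen genes COL3A1 and COL5A2 (at least 2.3-fold and 2.53-fold), and AMIGO2 and PCED1B (at least 7.51-fold and 1.7-fold). NNMT, DLX1, DLX2, ARMC12, COL5A2 and PCED1B were named after their values were seen.

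Genes that androgen is known to lower fell in part. Of 15 measured on a list of androgen-repressed genes, 9 were lower and 1 was higher (60% and 6.67%). Over all genes 19.4% were lower and 13.4% higher. The median difference of the list was −0.57, and 5 were at least 2-fold lower. Without DHT replicate 4, the count of higher members was 2. CAMK2N1, an inhibitor of the kinase CaMKII, read 11.15, 11.42, 11.32 and 11.29 with DHT and 13.33, 13.28, 13.30 and 13.34 with vehicle, or 4.05-fold lower (limma adjusted p = 1.24e-08). UGT2B15 and UGT2B17 encode the glucuronosyltransferases that inactivate androgens. UGT2B15 read 6.94, 7.33, 7.53 and 7.41 against 9.37, 9.51, 9.29 and 9.38, or 4.25-fold lower (adjusted p = 8.3e-07). UGT2B17 read 4.55, 4.95, 5.03 and 4.46 against 7.23, 7.08, 7.22 and 7.18, at least 2.26-fold lower (adjusted p = 4.58e-07). Their groups did not overlap, but the family members are so alike that a probe set may read more than 1 of them. UGT2B28 differed by 0.19 ± 0.07 and did not pass.

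PEG3 was 2.3-fold lower, and DDC, the aromatic amino acid decarboxylase, 1.67-fold lower. PIK3R3 and LYPLA1 differed by −0.57 and −0.27, and BCHE, dim in both groups, by −0.89. TGFBR3 was the member that rose, by 0.22 ± 0.04. CDH2, MET, OPRK1 and SI lay between −0.07 and 0.13 on their brightest probe sets and did not pass. On 1 other probe set each, MET differed by −0.98 ± 0.13 (adjusted p = 0.000291 over all probe sets) and OPRK1 by −1.27 ± 0.07 (adjusted p = 8.28e-07). ACP3, the prostatic acid phosphatase, which is not on the list, read 9.03, 9.14, 8.99 and 9.07 with DHT and 10.63, 10.71, 10.71 and 10.62 with vehicle, or 3.05-fold lower (limma adjusted p = 1.45e-08). The groups did not overlap, and the direction of this secretory product was opposite to that of KLK3.

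Of 26 measured enzymes that make or inactivate androgens, 4 were higher and 4 lower, 15.4% each, which is near the 13.4% and 19.4% of all genes. Of the 26, 10 were dim in both groups. CYP11A1, which cuts the side chain of cholesterol, was dim with vehicle and at least 2.35-fold higher, with wells of 7.28, 7.31, 7.24 and 7.17 against 6.07, 5.51, 5.81 and 6.01. HSD17B11, HSD17B4 and STS, the steroid sulfatase, rose by 0.59, 0.50 and 0.28 on the log2 scale. DHRS7 and RDH11 fell by 0.21 each, and the call of RDH11 was lost with median centring. SRD5A1, the 5-alpha reductase that makes DHT, stood at 9.99 and 10.03 on average and did not pass. With median centring 7 enzymes were higher in place of 4. Of 8 measured steroid receptors and relatives, 3 were lower: PGR, the mineralocorticoid receptor NR3C2 (−0.34 ± 0.06) and ESRRG (−0.51 ± 0.14), which was dim in both groups and lost its call under the replicate block. The glucocorticoid receptor NR3C1 differed by 0.05 ± 0.10 and the oestrogen receptor ESR1 by −0.02 ± 0.10, neither passing.

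Of 25 measured cofactors and pioneer factors of the receptor, 5 were higher and 6 lower (20% and 24%, near the shares of all genes), and none changed 2-fold. The coactivator NCOA2 fell by 0.84 ± 0.05, the corepressor TLE3 by 0.51 ± 0.05, the homeobox factor HOXB13 by 0.49 ± 0.05 and GATA2 by 0.41 ± 0.04, all on the log2 scale. The epithelial factor GRHL2 rose by 0.80 ± 0.05 and the SUMO ligase PIAS1 by 0.64 ± 0.05. FOXA1 differed by −0.07 ± 0.06 (limma adjusted p = 0.413). KDM1A, which encodes LSD1, read 10.24, 10.36, 10.24 and 10.32 with DHT and 10.15, 10.16, 10.14 and 10.10 with vehicle, a difference of 0.16 ± 0.04 (adjusted p = 0.0203) that missed the threshold without vehicle replicate 4 (adjusted p = 0.0566) and with all 20 arrays in 1 fit (adjusted p = 0.0643). The rise of NRIP1 lost its call without vehicle replicate 1 or 3, the fall of CREBBP without DHT replicate 1 or vehicle replicate 4, and that of NCOA1 without any array but vehicle replicate 1. With median centring 8 cofactors were higher. CREBBP differed by −0.19 on its brightest probe set and by 0.05 over the mean of its probe sets.

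**Figure D3:**
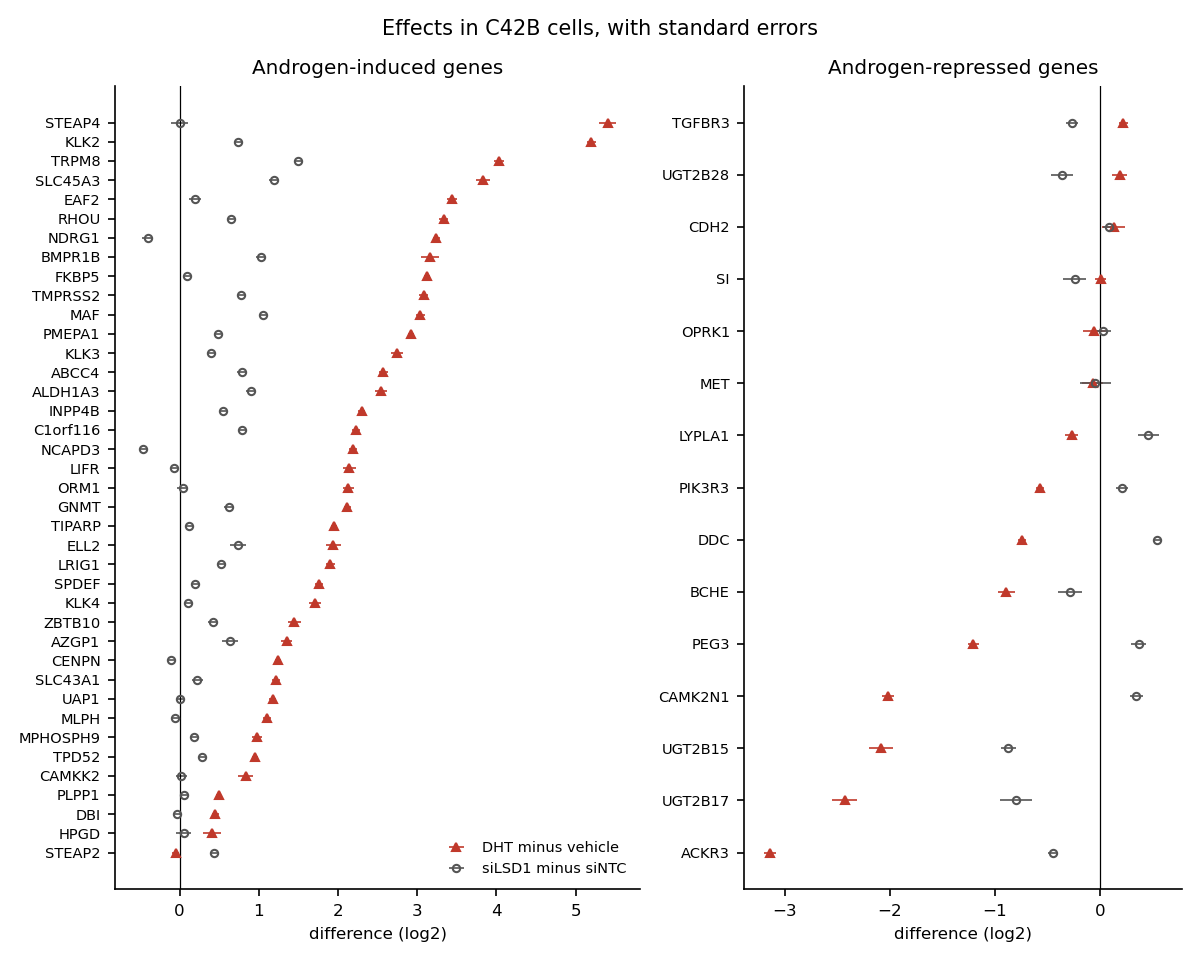
Differences (log2, with standard errors) for the androgen-induced list (left) and the androgen-repressed list (right) in C42B cells, with triangles for DHT minus vehicle and circles for siLSD1 minus siNTC. On the left all triangles but that of STEAP2 (−0.05) lie above 0, up to 5.19 for KLK2 among genes bright in both groups (STEAP4, TRPM8, INPP4B and ORM1 were dim with vehicle and HPGD in both groups), and the circles of the list have a median of 0.28.

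Genes of protein folding and export were higher in large numbers. Of 30 measured chaperones and genes of the unfolded protein response in the endoplasmic reticulum, 26 were higher (86.7%) and 0 lower. Over all genes 13.4% were higher and 19.4% lower. The median difference of the list was 0.67, with 5 genes at least 2-fold higher. DNAJB9 (ERdj4), a co-chaperone, read 11.97, 12.07, 12.01 and 12.06 with DHT and 10.42, 10.38, 10.37 and 10.40 with vehicle, or 3.11-fold higher (limma adjusted p = 4.28e-09). ERN1, the stress sensor IRE1-alpha, was 2.33-fold higher, DNAJC3 2.2-fold, MANF 2.17-fold and SDF2L1 2.12-fold. HSPA5 (BiP), the main chaperone of the compartment, read 13.65, 13.67, 13.70 and 13.83 against 12.96, 12.86, 12.96 and 12.80, or 1.76-fold (adjusted p = 3.78e-06). The transcription factors XBP1 (0.02 ± 0.07) and ATF6 (−0.04 ± 0.07), read here by transcript level only, did not pass. HSPA5, XBP1 and ATF6 were named after their values were seen.

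Of 35 genes of transport from the endoplasmic reticulum through the Golgi to the surface, 30 were higher and 4 lower (median 0.35). As shares these were 85.7% and 11.4%, against 13.4% and 19.4% over all genes. SEC24D, a cargo adaptor of COPII vesicles, rose by 1.45 ± 0.10, the secretory GTPase RAB3B by 1.82 ± 0.06 and the signal peptidase subunit SPCS3 by 0.96 ± 0.04 on the log2 scale. In contrast RAB27B, which docks secretory granules, fell by 1.22 ± 0.05, and its effector SYTL2 was among the largest falls. Of 24 enzymes of glycans and UDP-sugars, 14 were higher and 5 lower (58.3% and 20.8%, median 0.33). Beside CSGALNACT1 and ST6GALNAC1, UAP1, which makes UDP-N-acetylglucosamine, was 2.26-fold higher and the sialyltransferase ST6GAL1 2.08-fold, while GALNT3, which starts mucin-type O-glycans, was 2.25-fold lower. The other probe set of GALNT3 differed by −0.14 on the log2 scale, and those of ST6GAL1 by −0.08 and 0.47. Of 15 androgen-regulated genes of the cytoskeleton and trafficking, 10 were higher and 3 lower (66.7% and 20%, median 0.82). The recycling GTPase RAB4A was 2.14-fold higher and MYLK, the myosin light chain kinase, 4.27-fold lower.

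Genes of the amino acid response moved the other way. The list joins genes of that response and targets of ATF4, the factor that answers amino acid shortage. Of its 29 measured members, 21 were lower and 1 was higher, with a median difference of −0.43. As shares these were 72.4% lower and 3.45% higher, against 19.4% and 13.4% over all genes. STC2, a secreted glycoprotein, read 8.55, 8.59, 8.48 and 8.46 with DHT and 9.60, 9.61, 9.59 and 9.54 with vehicle, or 2.09-fold lower (limma adjusted p = 1.18e-07). CHAC1, which breaks down glutathione, was 2.05-fold lower, the cystine importer SLC7A11 1.77-fold, the serine synthesis enzyme PSAT1 1.73-fold and NUPR1 1.69-fold. ATF4 itself fell by 0.46 ± 0.04 and its target DDIT3 (CHOP) by 0.43. The list of chaperones of the endoplasmic reticulum and that of the amino acid response thus had medians of opposite sign. These were 0.67 and −0.43 against 0.01 over all genes. ATF4 and DDIT3 were named after their values were seen.

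**Figure D4:**
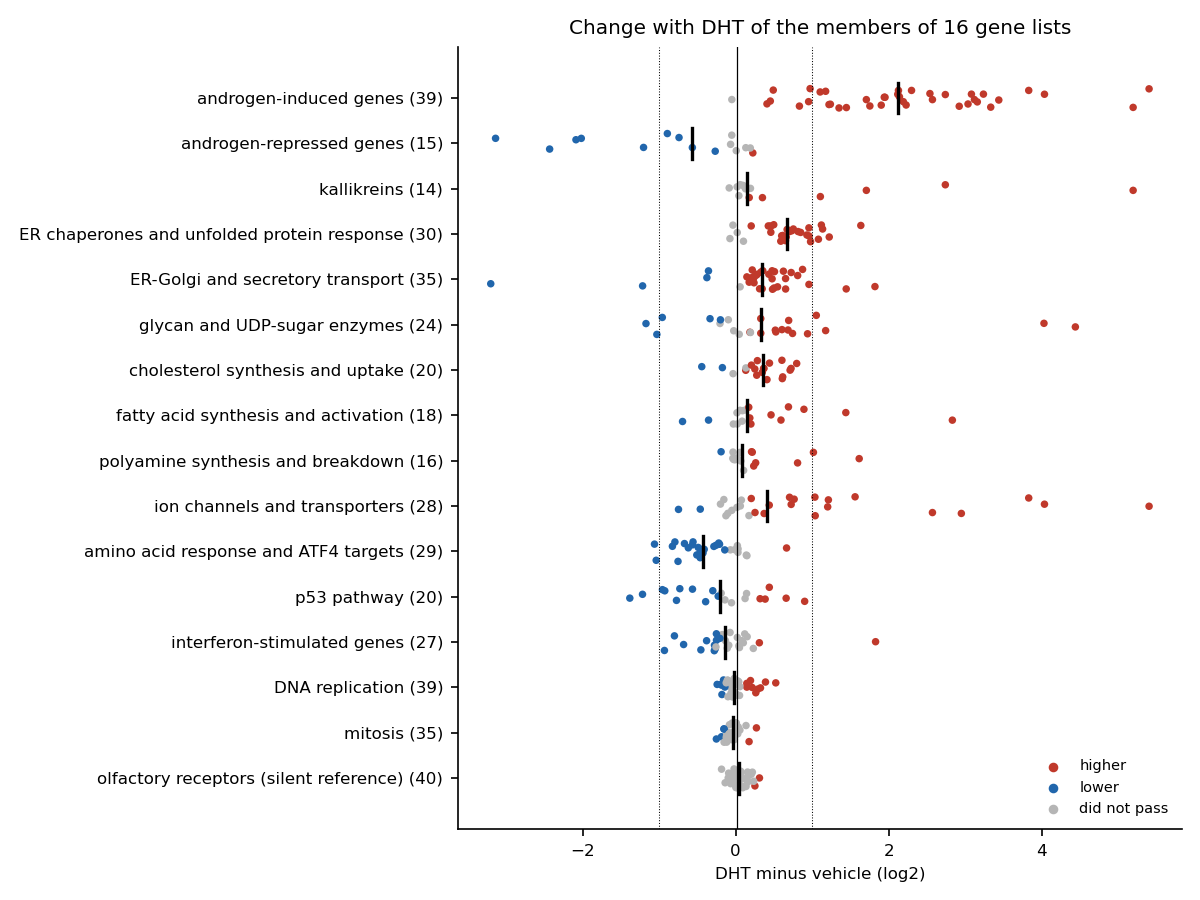
Difference between DHT and vehicle (log2) for each measured member of 16 gene lists, with the number of members in brackets, colours for genes that passed, a bar at each list's median and dotted lines at 2-fold. Androgen-induced genes (median 2.13), chaperones (0.67), cholesterol genes (0.36) and secretory transport (0.35) lie mostly above 0. Genes of the amino acid response and ATF4 targets (1 list, −0.43) lie mostly below, and mitosis, DNA replication and olfactory receptors close to 0.

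Genes of lipid synthesis were higher in smaller steps. Of 20 measured genes of cholesterol synthesis and uptake, 16 were higher and 2 lower (80% and 10%, median 0.36), none of them 2-fold. Over all genes 13.4% were higher and 19.4% lower. IDI1, an isomerase of the mevalonate pathway, rose by 0.80 ± 0.04, the sterol sensor SCAP by 0.72 ± 0.04, HMGCS1 by 0.71 ± 0.06, INSIG1 by 0.62 ± 0.07 and MSMO1 by 0.61 ± 0.04. With median centring 1 gene of this list was lower in place of 2. Of 18 genes of fatty acid synthesis and activation, 9 were higher and 2 lower (50% and 11.1%), and the elongases did not move together. ELOVL2, dim with vehicle, was at least 3.96-fold higher, ELOVL7 2.71-fold and ELOVL5 1.86-fold higher, and ELOVL6 was 1.62-fold lower. FASN, the fatty acid synthase, read 12.04, 12.06, 12.10 and 12.02 with DHT and 11.29, 11.42, 11.39 and 11.35 with vehicle, or 1.61-fold higher (limma adjusted p = 1.74e-06). Of 16 fatty acid oxidation genes, 7 were higher and 5 lower (43.8% and 31.2%), led by the isomerase ECI2 (2.36-fold) and the peroxisomal transferase CROT (2.2-fold). AMACR, the racemase used as a stain for prostate cancer, was 1.72-fold higher.

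Polyamines are made in quantity by prostate epithelium. SAT1, which acetylates them for breakdown and export, read 11.96, 12.05, 11.98 and 12.08 with DHT and 10.38, 10.37, 10.44 and 10.43 with vehicle, or 3.06-fold higher (limma adjusted p = 7.57e-09). ODC1, the decarboxylase that starts their synthesis, read 14.68, 14.73, 14.65 and 14.63 against 13.87, 13.89, 13.86 and 13.84, or 1.75-fold higher (adjusted p = 3.3e-07), and spermine synthase SMS was 2.02-fold higher. Synthesis and breakdown enzymes were therefore higher in the same wells. Of 16 genes 7 were higher and 1 lower (43.8% and 6.25%), against 13.4% and 19.4% over all genes. The lower call was lost without DHT replicate 3 or 4 and without vehicle replicate 2, 3 or 4.

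Transcripts of an insulin-like growth factor, its receptor and an adaptor of the pathway were higher with DHT. The ligand IGF1 read 9.27, 9.50, 9.35 and 9.36 with DHT and 7.35, 7.79, 7.67 and 7.75 with vehicle, or 3.32-fold higher (limma adjusted p = 8.64e-07). Its receptor IGF1R read 9.44, 9.41, 9.35 and 9.44 against 7.08, 6.93, 6.88 and 7.04, or 5.37-fold higher (adjusted p = 2.59e-09). The adaptor IRS2 read 9.51, 9.65, 9.48 and 9.71 against 7.97, 8.22, 8.13 and 7.90, or 2.9-fold higher (adjusted p = 5.54e-07). In each the lowest DHT well was more than 1 log2 unit above the highest vehicle well. Of the 13 genes of this family, 5 were higher and 2 lower (38.5% and 15.4%), against 13.4% and 19.4% over all genes. The lower count was 1 without DHT replicate 1 or 4 or vehicle replicate 2 or 3, and 0 with median centring. Of 16 genes of PI3K brakes and FOXO factors, 7 were higher and 7 lower (43.8% each). Among them were the rises of SGK1 and INPP4B and a fall of PIK3R1, the regulatory subunit p85-alpha, of 1.28 ± 0.08 on the log2 scale.

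Developmental ligands and receptors went in both directions. The bone morphogenetic protein receptor BMPR1B rose by 3.16 ± 0.11 and the pseudoreceptor BAMBI fell by 1.56 ± 0.06 on the log2 scale. Of 21 TGF-beta, BMP and ID genes, 3 were higher and 6 lower (14.3% and 28.6%). Over all genes 13.4% were higher and 19.4% lower. Of 21 WNT genes, 4 were higher and 8 lower (19% and 38.1%). The ligand WNT5A was 3.41-fold lower, the receptors FZD3 2.23-fold lower and FZD5 2.57-fold higher, and the receptor-degrading ligase RNF43 2.12-fold lower. The prostaglandin E receptor PTGER4 read 8.60, 8.76, 8.55 and 8.64 with DHT and 5.80, 6.20, 6.12 and 5.59 with vehicle, at least 5.88-fold higher (limma adjusted p = 2.57e-07). Its other probe set differed by 0.08 ± 0.08. ERRFI1, a feedback inhibitor of the EGF receptor, was 3.21-fold higher. Of 28 ion channels and transporters, 17 were higher and 2 lower (60.7% and 7.14%), led by STEAP4, TRPM8, SLC45A3, SLC15A2 and ABCC4.

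The differences of proliferation genes were small in size. Of 35 measured mitosis genes, 2 were higher and 4 lower (median −0.04), and of 39 DNA replication genes 9 were higher and 6 lower (median −0.02), none of them 2-fold. As shares these were 5.71% higher and 11.4% lower for mitosis and 23.1% higher and 15.4% lower for replication, against 13.4% and 19.4% over all genes. The largest of these differences were those of the replication-licensing factor CDC6, by 0.52 ± 0.04, and of the ribonucleotide reductase subunit RRM2, by 0.39 ± 0.04. The mitosis count of lower genes was 2 without DHT replicate 1 or 3 or vehicle replicate 2, 3 or 4, and the replication count was 3 without DHT replicate 1 or 3 or vehicle replicate 2 or 3. With median centring both lower counts were 1. The mitosis count was 10 with trend and robust eBayes, 7 with a floor of 7 and 2 with all 20 arrays in 1 fit. CDK6, a kinase of the G1 phase, was the exception in size, with wells of 8.57, 8.34, 8.43 and 8.42 with DHT and 6.88, 6.98, 6.71 and 7.18 with vehicle, or 2.84-fold higher (limma adjusted p = 1.9e-06). The cell cycle inhibitor CDKN1A (p21) rose by 0.32 ± 0.05, and MYC fell by 0.35 ± 0.04.

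Of 20 genes of the p53 pathway, 10 were lower and 5 higher (50% and 25%, median −0.21). Over all genes 19.4% were lower and 13.4% higher. GADD45A, a DNA damage and stress response gene, was 2.61-fold lower, the death receptor FAS 2.32-fold, TP53INP1 1.94-fold and SESN1 1.9-fold, while the death receptor TNFRSF10B was 1.87-fold higher. Of 27 interferon-stimulated genes, 11 were lower and 2 higher (40.7% and 7.41%, median −0.13), with 8 dim in both groups. Leaving out each array in turn gave 8 to 10 lower. IFIT5 and the RNA sensor IFIH1 were 1.74-fold and 1.6-fold lower, and HERC5, the ligase that attaches ISG15 to proteins, was 3.55-fold higher. IFIT1 stood at means of 5.13 with DHT and 6.06 with vehicle, so that its fall is bounded at 1.04-fold.

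Epithelial markers were present, with 0 of 19 luminal markers dim with DHT and 1 dim with vehicle, and some of them moved with DHT. The summed intensity of the luminal markers was 63283 to 65131 over the DHT wells and 53369 to 54809 over the vehicle wells. Single markers went both ways, 5 higher and 8 lower (26.3% and 42.1%), against 13.4% and 19.4% over all genes. KRT8 and KRT18, the keratins of luminal cells, were 2.61-fold and 1.77-fold higher, KRT19 was dim with vehicle and at least 3.38-fold higher, and the tight junction protein OCLN was 1.88-fold lower. The other probe set of KRT19 differed by 0.19 ± 0.09 on the log2 scale. The lower count of luminal markers was 4 with median centring and 5 with the mean of all probe sets. Of 5 basal markers 4 were dim in both groups, with sums of 190.9 to 210.7 with DHT and 168.4 to 187.8 with vehicle. The 1 marker called higher, KRT14, was dim in both groups and lost its call when any DHT array or vehicle replicate 3 or 4 was left out, with quantile normalization and under the replicate block. With median centring 4 of the 5 were higher. Of 14 stromal, endothelial and leukocyte markers, 0 were higher and 1 was lower, COL3A1, dim with DHT and at least 2.3-fold lower. Their sums were 1126 to 1188 with DHT and 1149 to 1280 with vehicle, and without vehicle replicate 1 there was 1 higher call, with median centring 3. The part of these shifts in the other results was not tested.

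SNAI2 is also a marker of mesenchymal state, so the other mesenchymal genes are given beside it. Of 18 measured, 3 were higher and 1 lower (16.7% and 5.56%, median 0.06), against 13.4% and 19.4% over all genes. The list's summed intensity was 10874 to 11604 with DHT and 9962 to 10803 with vehicle. LOX, which crosslinks collagen, was dim with vehicle and at least 2.52-fold higher. FBN1, dim in both groups, differed by 0.32 ± 0.09 and lost its call without vehicle replicate 2 (adjusted p = 0.0515). Vimentin (VIM) fell by 0.46 ± 0.06 on the log2 scale. Without vehicle replicate 2 the lower count was 2.

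The androgen effect was set against that of LSD1 depletion in C42B cells grown in charcoal-stripped serum, an experiment with its own control arrays. That experiment ran for 96 h after transfection from 200K cells per well, against 16 h of DHT from 150K, so the effects differ in duration and seeding too. KDM1A itself fell by 2.40 ± 0.08 on the log2 scale there. There 1713 genes were higher (8.66%) and 1856 lower (9.39%) with siLSD1. Of the 39 androgen-induced genes, 20 were higher and 2 lower with siLSD1, with a median of 0.28 where DHT gave 2.13. The signed difference, DHT effect minus siLSD1 effect, was tested in 1 limma fit over the 14 C42B arrays. Among genes that passed, it was above 0 in 2842 (14.4% of all tested) and below 0 in 3168 (16%). Its sign does not say which effect was larger in size. Among the androgen-induced genes that passed, the signed difference was above 0 in 37 and below 0 in 1. KLK2 rose by 0.74 ± 0.05 with siLSD1, a difference between effects of 4.45 ± 0.08 (adjusted p = 1.82e-13). NDRG1 fell by 0.40 with siLSD1 and rose by 3.24 with DHT.

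ACP3 fell with DHT and rose by 1.97 ± 0.05 with siLSD1, which made a difference of −3.58 ± 0.07 (limma adjusted p = 1.82e-13). GRAMD1C, a cholesterol transfer protein, went from −2.40 ± 0.09 with DHT to 0.98 with siLSD1, and the matrix protein MATN2 from −2.75 to 1.01. LRRN1 also fell with DHT, and its difference was −3.36 ± 0.09. SNAI2, STEAP4, LINC00844, CCDC141, SLC26A3, AMIGO2 and PTPRR, likewise named for their fitted differences, were dim in 1 group of the DHT experiment, so the size and order of their differences are not given. Mitosis genes, of which 2 rose and 4 fell with DHT, numbered 0 higher and 31 lower of 35 with siLSD1. Of the genes higher with DHT, 515 were also higher with siLSD1 (19.5% of the DHT list and 30.1% of the siLSD1 list) and 260 were lower (9.84% and 14%). Of the genes lower with DHT, 508 were also lower with siLSD1 (13.3% and 27.4%) and 595 were higher (15.5% and 34.7%).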

How the data were processed

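RNA was hybridized to Affymetrix 3′ arrays with 54675 probe sets. The deposited intensity values, 1 per probe set and array, came from RMA as implemented in affy, per the submitters' processing notes; the sources used here name no version. They are linear, between 4.34 and 36333, and were converted to log2. Distributions differ by experiment, so levels were compared within an experiment only. Per the labels' protocols 2 labelling kits were used, not tied to samples, so kit could not enter a fit.

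Of the probe sets 41091 name 1 gene in the platform annotation, 1801 name several, 11721 none and 62 are controls. Each of 19775 genes was represented by whichever of its 1-gene probe sets was brightest over the 20 arrays; 10523 had several. DHT and vehicle were compared on their 8 arrays with limma 3.58.1 (lmFit, then eBayes) under R 4.3.3. The model had no covariates, tests were two-sided, and p-values were adjusted over all genes by Benjamini-Hochberg with a threshold of 0.05. The fit was tested on simulated data. The number of arrays limits the precision. Tables and plots used Python 3.11.15, numpy 2.4.6, pandas 2.3.3, scipy 1.17.1 and matplotlib 3.10.9.

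The gene lists, the members and the rule for named genes were chosen with earlier results of these data known. The rule named the 12 largest rises and 12 largest falls among genes that passed, had a mean of at least 6 in 1 group and did not overlap between groups. It also named up to 5 passing members per list, members of the androgen-related lists, KDM1A, and the 6 largest differences from siLSD1 per direction. No pairing of wells by replicate number was seen, which 4 arrays per group cannot exclude. Deviations of same-numbered arrays correlated at −0.07 to 0.10 and those of other numbers at −0.10 to 0.15. Alternatives were the mean of all probe sets, every probe set, floors of 6 and 7, quantile normalization, median centring, trend and robust eBayes, arrayWeights, all 20 arrays in 1 fit, a replicate block and leaving out each array.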

Additional observations from a re-analysis of the deposited data

Results flagged for a closer look

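In 30 of 644 groups of 4 arrays (4.66%), checked over the named genes, 1 array stood apart from the other 3 by Dixon's criterion at its 95% critical value. Chance flags about 1 in 20 groups. The values are log2 intensities. DHT replicate 1 was above the others for CD24 at 8.41 and NNMT at 9.71. DHT replicate 1 was below the others for MTA2 at 7.37. DHT replicate 2 was above the others for CAMKK2 at 10.98, FEN1 at 12.33 and NEK2 at 11.14. DHT replicate 3 was above the others for KRT14 at 4.88. DHT replicate 4 was above the others for FN1 at 13.02, GALNT3 at 10.34, SMS at 12.75 and TNFRSF10B at 11.93. DHT replicate 4 was below the others for ATP8A1 at 5.06, INHBB at 8.17, NCOA4 at 12.46 and STEAP4 at 9.41. Vehicle replicate 1 was above the others for ASNS at 12.48, ESR1 at 6.99 and NNMT at 7.40. Vehicle replicate 1 was below the others for ABCC4 at 9.60. Vehicle replicate 2 was above the others for HSD17B10 at 11.81. Vehicle replicate 2 was below the others for CRY1 at 9.84, IGFBP1 at 3.57, MAF at 6.58 and SGK1 at 6.88. Vehicle replicate 4 was above the others for ELL2 at 10.18, MPHOSPH9 at 9.70, PEG3 at 10.73 and PIK3R1 at 11.15. Vehicle replicate 4 was below the others for CYP19A1 at 5.79 and KLK14 at 6.71. Of the 30, 8 were of DHT replicate 4 and 6 of vehicle replicate 4, and 0 of vehicle replicate 3. For the leading genes STEAP4 and SGK1 the gap to the other arrays was far smaller than the difference between the groups.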

How the results depend on the processing

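The counts of higher and lower genes stayed within 1.5 times the reported ones under all alternatives but a pair. Median centring gave 4530 genes higher in place of 2643, and averaging a gene's probe sets gave 140 genes at least 2-fold lower in place of 231. In the first case the setting adds 0.07 to every difference, and in the second the cause was not tested. Leaving out each array in turn gave 2253 to 2517 genes higher, 3262 to 3647 lower, 223 to 233 at least 2-fold higher and 223 to 237 at least 2-fold lower. The signed differences from siLSD1 that passed then numbered 2400 to 2996 above 0 and 2811 to 3263 below 0. The actin control difference ranged from −0.04 to 0.07 and that of GAPDH from −0.0006 to 0.0094. With the replicate block, 2468 genes were higher and 3516 lower, and 2702 and 3003 differed from siLSD1; 2 of 4 DHT arrays lay closest to the vehicle array of their own number. Of 5402 values of 322 named genes over the alternatives, 5273 kept direction and call, 99 lost the call (29 genes), 29 gained it and 1 turned: CREBBP, from −0.19 to 0.049 (adjusted p = 0.34) with its probe sets averaged. Signal over background limits the 599 called genes that were dim in both groups. Different probe sets were called in both directions in 123 genes. The folds given hold for a gene's brightest probe set, and its other probe sets did not always move as much. Examples on the log2 scale are HK2 (−0.01 and 0.02), TP53INP1 (−0.02 and −0.11), ANKRD37 (0.11), DLX2 (0.08) and FASN (0.07). Other probe sets of COL3A1 differed by −1.45, −0.22, −0.05 and −0.02.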

Other observations

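Some measured gene groups stand outside the comparisons above. Over all tested genes 13.4% were higher and 19.4% lower, and the shares of each group are given in brackets. Of 18 genes of retinoic acid enzymes and receptors, 2 were higher (11.1%), ALDH1A3 and the receptor RARB (2.02-fold). In that group 4 were lower (22.2%), among them DHRS3, which reduces retinaldehyde (1.41-fold). Among 16 prostaglandin genes, PTGER4, ABCC4 and HPGD were higher (18.8%) and 2 were lower (12.5%), with the phospholipase PLA2G2A at 2.37-fold lower. The lower count was 1 without DHT replicate 3 or vehicle replicate 3. Of 30 genes of glycolysis and the hypoxia response, 11 were higher and 5 lower (36.7% and 16.7%). Leaving out each array in turn gave 8 to 10 higher. The glucose transporter SLC2A3, dim with vehicle, was at least 2-fold higher, ANKRD37 3.35-fold and hexokinase HK2 1.85-fold higher, while the neuronal enolase ENO2 was 1.55-fold lower. Among 15 antioxidant genes of NRF2, 3 were higher and 3 lower (20% each). GCLC, the catalytic subunit of glutathione synthesis, was 2.07-fold lower and glutathione reductase GSR 1.48-fold higher.

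Of 15 circadian clock genes 4 were higher and 5 lower (26.7% and 33.3%), with the repressor NR1D2 at 1.74-fold lower and CRY1 at 1.26-fold higher. Among 19 ETS factors 4 were higher and 3 lower (21.1% and 15.8%), and with median centring 8 were higher. ELK4 was 1.78-fold higher and ELK3 1.86-fold lower. Of 38 enzymes of histone lysine methylation 7 were higher and 11 lower (18.4% and 28.9%), led by the demethylase PHF8, 2.14-fold higher, and KDM4B, 1.48-fold higher. With median centring the counts were 12 and 6, and with a gene's probe sets averaged 5 were lower. Of 22 genes of LSD1 complexes 4 were higher and 9 lower (18.2% and 40.9%). Leaving out each array in turn gave 3 higher and 6 to 7 lower. The lower count was 4 with median centring and 5 with a gene's probe sets averaged. CTBP1, a corepressor, was 2.08-fold lower, with 3 of its 4 probe sets lower and 1 higher. Among 21 adhesion and surface antigens 2 were higher (9.52%), with the peptidase DPP4 at 2.21-fold. In that group 7 were lower (33.3%), with PSMA (FOLH1) at 1.46-fold. Without DHT replicate 1 or vehicle replicate 3 the lower count was 4, and with median centring 3. Of 24 neuronal and neuroendocrine genes 0 were higher and 5 lower (20.8%), 10 being dim in both groups. The lower count was 2 without DHT replicate 2, 3 without DHT replicate 3 or vehicle replicate 2 or 4, and 2 with median centring. The higher count of that list was 1 without DHT replicate 1 or vehicle replicate 1 or 4, and 4 with median centring.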
